A study of Mus musculus with 15 samples.

Results

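Glycolysis, glycogen storage and glucose transport were followed through 35 genes in the ventricles of mice given angiotensin II, with or without oleic acid. The genes were picked by name for their enzyme or carrier role by a rule that uses no measured value, though with earlier results of these data known. They make up 35 of the 36653 gene rows in the deposited table. They were 4 carriers (Slc2a1, Slc2a4, Slc16a1, Slc16a3), 14 genes of upper glycolysis (Hk1, Hk2, Gpi1, Pfkm, Pfkl, Pfkp, Pfkfb1, Pfkfb2, Pfkfb3, Pfkfb4, Fbp2, Aldoa, Aldoc, Tpi1), 9 of lower glycolysis (Gapdh, Pgk1, Pgam1, Pgam2, Eno1, Eno3, Pkm, Ldha, Ldhb) and 8 of glycogen metabolism (Gys1, Pygm, Pygb, Pygl, Ugp2, Gbe1, Phka1, Phkg1). RNA sequencing was done on 15 libraries of wild-type C57BL/6 mice aged 10 weeks, with 5 biological replicates in each of 3 groups. Angiotensin II is a hormone that constricts vessels and raises blood pressure, and oleic acid is the main fatty acid of olive oil. AngII plus OA mice had a pump under the skin releasing 1000 ng/kg/min of angiotensin II and were given oleic acid, 160 mg/kg daily, each mouse receiving 0.3 mL. AngII mice carried the same pump, and vehicle mice received saline. The labels used here do not give how long the pumps ran, nor what the AngII and vehicle mice received in place of oleic acid. The comparisons address what angiotensin II does to the ventricle and whether oleic acid alters it.

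As background, glucose enters heart muscle through facilitative carriers, is trapped by hexokinase and is split in glycolysis to pyruvate, with phosphofructokinase as the main committed step. Most steps have several isozymes coded by separate genes, and adult heart muscle favours the muscle forms, while fibroblasts, immune cells and fetal tissues carry more of the liver, platelet and brain forms. The adult heart draws most of its energy from fatty acids, and a shift of fuel use toward glucose is a known feature of the pressure-loaded heart.

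Transcripts of the pathway ran from among the most abundant in the ventricle to near absence. In FPKM (fragments per kilobase of gene per M fragments, which corrects for gene length), 10 of the 35 genes had a vehicle mean of at least 100, 14 lay between 10 and 100, 9 between 1 and 10 and 2 below 1. The most abundant was Ldhb, the heart form of lactate dehydrogenase, at 831.5 FPKM in vehicle hearts, which placed it 45th of all gene rows. Gapdh, at 786 FPKM, Pgam2, at 693.5 FPKM, Eno3, at 611 FPKM, and Aldoa, at 572 FPKM, followed it, each within the top 100 rows. The muscle forms Pfkm (phosphofructokinase, 190.2 FPKM) and Pygm (glycogen phosphorylase, 182 FPKM) came next. At the other end, Aldoc, the brain form of aldolase, was listed at 0.0374 to 0.436 FPKM and missed the minimum mean of 0.5 FPKM, so 34 of the 35 genes were tested.

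The FPKM denominators of the 15 libraries were 24.5 to 28.3 M fragments, and the mitochondrial share and marker sums of each group bear on every value below. The share of FPKM in mitochondrially encoded genes was 42.4% ± 3.10 in AngII plus OA hearts, 41.1% ± 5.20 in AngII hearts and 47.1% ± 2.52 in vehicle hearts (SD, n = 5 each). Summed over 10 heart muscle markers the libraries lay between 25571 and 34262 FPKM, except AngII replicate 2, at 15684 FPKM. That library held 302 FPKM of 6 fat cell markers and 3046 FPKM of 5 atrial markers, against at most 88.7 and 750.4 FPKM in any other library. It had the lowest level of all 15 libraries for 16 of the 35 genes, among them Hk2, Pfkm, Eno3, Ldhb, Slc2a4 and Pygm, and the highest for 4, Pfkfb3, Aldoc, Slc2a1 and Phka1. Its 35 genes summed to 3587.5 FPKM, against 4445 to 5793 FPKM in the others, and many changes are also given without it. Markers of other cell types also moved with angiotensin II. The 8 fibroblast markers summed to 553 to 1039.7 FPKM in AngII plus OA hearts, 731 to 1211 FPKM in AngII hearts and 369.8 to 701 FPKM in vehicle hearts, and 4 of the 8 rose in AngII against vehicle (Col1a1, Col1a2, Postn, Pi16). The 9 macrophage markers summed to 180.4 to 273 FPKM in AngII plus OA hearts, 197 to 332 FPKM in AngII hearts and 138.5 to 185.5 FPKM in vehicle hearts, and 3 of the 9 rose in AngII against vehicle (C1qa, C1qb, Cd163). Without AngII replicate 2, 2 of the 9 macrophage and 4 of the 8 fibroblast markers were called. These counts were the same after quantile normalization and after rescaling without mitochondrially encoded genes. The 7 endothelial markers, of which 0 were called, summed to 181 to 238.5 FPKM in AngII plus OA hearts, 215 to 273 FPKM in AngII hearts and 193.5 to 221 FPKM in vehicle hearts.

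In AngII hearts, 1 of the 34 tested genes rose against vehicle, Pfkp, which codes for the platelet form of phosphofructokinase. Over all 13121 tested genes, limma with Benjamini-Hochberg adjustment called 1.5% in AngII against vehicle at an adjusted p under 0.05. With AngII higher it called 1.27%, so the share of 1 in 34 is near the background. That background, 197 genes, ranged from 49 to 425 as single libraries of the 2 groups were left out. Pfkp (ENSMUSG00000021196) had 7.42, 8.97, 7.24, 7.82 and 4.58 FPKM in AngII plus OA hearts and 10.4, 8.24, 8.71, 9.91 and 11.02 FPKM in AngII hearts. For Pfkp, vehicle hearts had 6.13, 4.399, 5.93, 4.35 and 5.03 FPKM. All 5 AngII hearts lay above all 5 vehicle hearts, and the AngII plus OA hearts lay between and overlapped both. Groups without overlap were found for Pfkp alone among the 34, beside 3.8% of all tested genes, and 3.13% had AngII higher. The mean was 7.204 ± 1.61 FPKM in AngII plus OA hearts, 9.65 ± 1.15 FPKM in AngII hearts and 5.17 ± 0.835 FPKM in vehicle hearts (SD, n = 5 each), a ratio of 1.87 for AngII over vehicle. The log2 change of FPKM + 1 was 0.79 ± 0.14 (SE), adjusted p = 0.0163 in limma. The call was lost without AngII replicate 5, where the log2 change was 0.75 (adjusted p = 0.0553 in limma). In these pieces of ventricle, more cells that use Pfkp and more Pfkp RNA per cell cannot be told apart, and the part in this difference of fibroblasts and macrophages, whose markers rose in AngII hearts, was not tested.

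With oleic acid added to angiotensin II, the mean of Pfkp lay between those of the other groups, and neither difference passed the threshold. In AngII plus OA against AngII the log2 change was -0.40 ± 0.14 (SE), unadjusted p = 0.0145, adjusted p = 0.71 in limma, and against vehicle it was 0.40 ± 0.14 (SE), unadjusted p = 0.0143, adjusted p = 1.0. The 2 comparisons share libraries with each other and with AngII against vehicle. AngII plus OA replicate 5, at 4.58 FPKM, was within the vehicle range, and the other 4 libraries of that group were above every vehicle library.

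**Figure D1:**
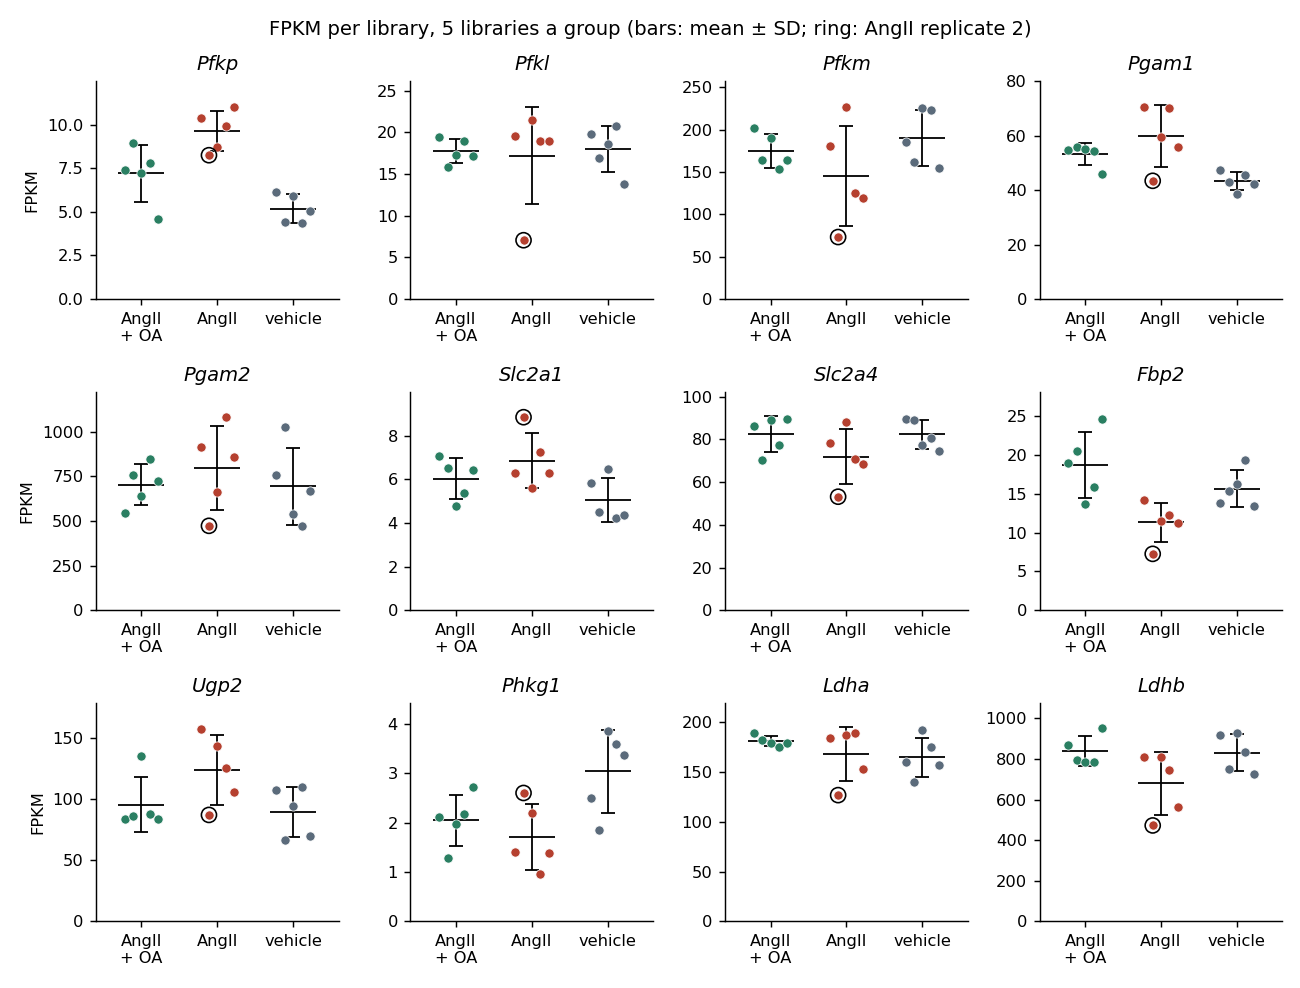
FPKM (y axis, from 0) of 12 genes in each library, by group on the x axis, with points for libraries, bars for mean ± SD and a ring around AngII replicate 2. Pfkp in AngII hearts, 8.24 to 11.02 FPKM, lies wholly above vehicle hearts, 4.35 to 6.13 FPKM, while in the other 11 panels the AngII and vehicle points overlap.

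The sequences before the starts of Pfkp, Pgam1 and Ldha are shown as examples of upstream regions with and without the letters ACGTG. Pgam1 had the next smallest adjusted p after Pfkp, and Ldha is a textbook target of the hypoxia-inducible factors. ACGTG is a form of the core bound by those factors. Each is the 250 bases before the RefSeq start on GRCm38.p6, read in the direction of the gene, at chr13:6648772-6649021 on the minus strand for Pfkp, chr19:41911621-41911870 on the plus strand for Pgam1 and chr7:46845554-46845803 on the plus strand for the first of the 2 Ldha starts. Capitals mark ACGTG or its complement CACGT, that form of the core, and the GC box GGGCGG or its complement CCGCCC, bound by Sp1. The other form, GCGTG, was neither counted nor marked, so a window without ACGTG may still hold the core. The Pfkp window does, since GCGTG stands in it unmarked.
Pfkp: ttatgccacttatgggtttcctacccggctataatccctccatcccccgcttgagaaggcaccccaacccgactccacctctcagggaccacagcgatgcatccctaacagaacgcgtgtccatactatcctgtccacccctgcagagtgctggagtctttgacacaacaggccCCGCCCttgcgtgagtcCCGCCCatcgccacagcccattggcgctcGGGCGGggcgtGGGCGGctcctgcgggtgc
Pgam1: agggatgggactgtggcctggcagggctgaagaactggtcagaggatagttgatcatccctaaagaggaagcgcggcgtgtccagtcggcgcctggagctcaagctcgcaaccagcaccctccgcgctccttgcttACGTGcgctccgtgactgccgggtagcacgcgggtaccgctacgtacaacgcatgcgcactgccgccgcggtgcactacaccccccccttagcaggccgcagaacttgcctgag
Ldha: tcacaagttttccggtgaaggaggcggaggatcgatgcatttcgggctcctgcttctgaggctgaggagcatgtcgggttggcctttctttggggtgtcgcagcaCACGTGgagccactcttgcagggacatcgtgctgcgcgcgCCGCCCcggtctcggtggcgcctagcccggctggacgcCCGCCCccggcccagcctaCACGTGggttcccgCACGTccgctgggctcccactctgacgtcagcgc
The Pfkp window holds 4 GC boxes and 0 ACGTG, the Pgam1 window 1 ACGTG and 0 GC boxes, and the Ldha window 3 places with ACGTG, 2 of them within the E-box CACGTG, and 2 GC boxes. RefSeq windows matched 34 of the 35 genes with 52 windows (all but Slc2a4), and ACGTG on either strand occurred in 40.4% of them, against 16.6% of all 32851 windows of the same length. The E-box CACGTG, which overlaps ACGTG, occurred in 11.5% of the windows of these genes against 6.02% of all, and GGGCGG in 48.1% against 32.7%. TATAAA, the TATA box, occurred in 1.92% against 12.4%. These shares describe letters in a window, not binding. The windows were not matched for base composition, and genes with more than 1 start entered more than once. Of the 34 genes, 17 held ACGTG in a window, and they include Pgam1 and Ldha but not Pfkp, whose window holds GCGTG.

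Among the carriers, limma called 0 of 4 in any comparison, and 1 of the 4 (Slc2a1) had an unadjusted p under 0.05 in AngII against vehicle, beside 1.5% of all genes called and 16.6% with such a p. Slc2a4 (ENSMUSG00000018566), which codes for the insulin-responsive carrier GLUT4 and was the most abundant of them, had 86.1, 70.5, 89.1, 77.5 and 89.8 FPKM in AngII plus OA hearts and 78.3, 53.2, 88.1, 70.9 and 68.6 FPKM in AngII hearts. For Slc2a4, vehicle hearts had 89.5, 89.3, 77.4, 80.8 and 74.5 FPKM. All 3 groups overlapped, and AngII replicate 2 was the lowest library, at 53.2 FPKM. Slc2a4 had a log2 change in AngII against vehicle of -0.21 ± 0.13 (SE), adjusted p = 0.427 in limma, and in AngII plus OA against AngII it was 0.21 ± 0.13 (SE), adjusted p = 0.753. With AngII replicate 2 left out these were -0.11 (adjusted p = 0.646) and 0.11 (adjusted p = 0.837). Slc2a1 (ENSMUSG00000028645), which codes for the basal carrier GLUT1, had 7.07, 6.54, 4.77, 5.35 and 6.43 FPKM in AngII plus OA hearts and 6.27, 8.84, 5.58, 7.23 and 6.29 FPKM in AngII hearts. For Slc2a1, vehicle hearts had 5.81, 4.48, 6.47, 4.22 and 4.38 FPKM. AngII replicate 2 was the highest of the 15 libraries, and the AngII and vehicle hearts overlapped. Slc2a1 had a log2 change in AngII against vehicle of 0.37 ± 0.14 (SE), unadjusted p = 0.0155, adjusted p = 0.18 in limma, and 0.29 (adjusted p = 0.257) without AngII replicate 2. Slc16a1, which codes for the lactate carrier MCT1, averaged 46.2 ± 6.12 FPKM in AngII plus OA hearts, 39.1 ± 10.8 FPKM in AngII hearts and 35.6 ± 6.12 FPKM in vehicle hearts (SD, n = 5 each). Slc16a3, which codes for the lactate exporter MCT4, stayed between 0.5986 and 3.06 FPKM in all libraries, with its highest value in AngII replicate 4.

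In upper glycolysis, 1 of 13 tested genes (Pfkp) was called in AngII against vehicle, beside 1.5% of all genes. An unadjusted p under 0.05 in limma was found for 2 of the 13 (15.4%), beside 16.6% of all genes. Of the 13 changes, 6 were above 0 and 7 below, with a median of -0.05 on the log2 scale. Leaving out AngII replicate 2, 9 of the 13 were above 0 and 4 below, with a median of 0.10, so these counts give no direction. With all libraries, 8 were below 0 after rescaling without mitochondrially encoded genes (median -0.15) and 9 after quantile normalization (median -0.21). With each library shifted to a common median, 8 were below 0 (median -0.14). In each of these scalings 5 of the 13 (38.5%) had an unadjusted p under 0.05 in limma, beside 13.3%, 14.1% and 14.7% of all genes. Hk1, the hexokinase of most tissues, averaged 11.5 ± 0.969 FPKM in AngII plus OA hearts, 11.4 ± 2.64 FPKM in AngII hearts and 10.5 ± 3.07 FPKM in vehicle hearts (SD, n = 5 each), and Hk2, the insulin-responsive muscle form, 24.6 ± 2.697 FPKM in AngII plus OA hearts, 21.3 ± 6.84 FPKM in AngII hearts and 27.4 ± 6.44 FPKM in vehicle hearts (SD, n = 5 each). Hk2 had a log2 change in AngII against vehicle of -0.38 ± 0.20 (SE), adjusted p = 0.373 in limma, and of -0.20 (adjusted p = 0.586) without AngII replicate 2. Gpi1, the isomerase that follows, averaged 73.7 ± 6.93 FPKM in AngII plus OA hearts, 78.5 ± 10.4 FPKM in AngII hearts and 70.2 ± 11.9 FPKM in vehicle hearts (SD, n = 5 each). The groups overlapped for all 3 of these genes. Pfkm, the muscle phosphofructokinase, ranged from 154 to 202 FPKM in AngII plus OA hearts, 73.3 to 226 FPKM in AngII hearts and 154 to 226 FPKM in vehicle hearts, with AngII replicate 2 lowest. Pfkl, the liver form, was at 7.07 FPKM in that library and at 13.9 to 21.5 FPKM in the other 14. Neither passed the threshold. In AngII against vehicle the log2 change was -0.47 ± 0.23 (SE), adjusted p = 0.324 for Pfkm and -0.13 ± 0.22 (SE), adjusted p = 0.811 for Pfkl in limma. Leaving out AngII replicate 2, it was -0.25 (adjusted p = 0.505) for Pfkm, and for Pfkl the sign turned, to 0.14 (adjusted p = 0.539).

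The genes of the 6-phosphofructo-2-kinase/fructose-2,6-bisphosphatases, which set the level of an activator of phosphofructokinase, were low, and limma called 0 of the 4, with 0 at an unadjusted p under 0.05. Pfkfb2, the heart form, was the most abundant, at 6.76 to 17.8 FPKM in AngII plus OA hearts, 5.67 to 16.2 FPKM in AngII hearts and 8.08 to 19.1 FPKM in vehicle hearts. Pfkfb1 averaged 4.62 ± 2.54 FPKM in AngII plus OA hearts, 2.84 ± 0.935 FPKM in AngII hearts and 4.28 ± 0.845 FPKM in vehicle hearts (SD, n = 5 each), and Pfkfb4 1.08 ± 0.146 FPKM in AngII plus OA hearts, 1.33 ± 0.384 FPKM in AngII hearts and 1.26 ± 0.357 FPKM in vehicle hearts (SD, n = 5 each). Pfkfb3, the inducible form, was at 11.6 FPKM in AngII replicate 2 and at 0.883 to 2.85 FPKM in the other 14 libraries, so its AngII mean of 3.95 FPKM rests on that library and was 2.04 FPKM without it. Fbp2 (ENSMUSG00000021456), the muscle fructose-1,6-bisphosphatase, which runs the phosphofructokinase step in reverse, had 19.0, 20.6, 13.7, 15.9 and 24.7 FPKM in AngII plus OA hearts and 14.2, 7.27, 11.6, 12.2 and 11.2 FPKM in AngII hearts. For Fbp2, vehicle hearts had 13.9, 15.4, 16.3, 19.3 and 13.4 FPKM. The AngII hearts were lower on average than both other groups but overlapped each, since AngII replicate 1, at 14.2 FPKM, exceeded the lowest libraries of both. Fbp2 had a log2 change of 0.68 ± 0.17 (SE), unadjusted p = 0.00112, adjusted p = 0.706 in AngII plus OA against AngII and -0.45 ± 0.17 (SE), unadjusted p = 0.0182, adjusted p = 0.193 in AngII against vehicle in limma. Without AngII replicate 2 the first of these was 0.55 (unadjusted p = 0.00254), still short of the threshold after adjustment.

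Aldoa (ENSMUSG00000030695), the muscle aldolase and the most abundant gene of upper glycolysis, had 582, 655, 544, 680.1 and 711 FPKM in AngII plus OA hearts and 610.1, 559.5, 522, 661 and 731 FPKM in AngII hearts. For Aldoa, vehicle hearts had 633, 699, 515, 406 and 605 FPKM. The groups overlapped throughout, with the lowest value, 406 FPKM, in vehicle replicate 4 and the highest, 731 FPKM, in AngII replicate 5. Aldoa had a log2 change of 0.12 ± 0.15 (SE), adjusted p = 0.726 in AngII against vehicle and 0.04 ± 0.15 (SE), adjusted p = 0.965 in AngII plus OA against AngII in limma. The second was 0.01 without AngII replicate 2 and turned sign, at -0.04, after quantile normalization and, at -0.01, without AngII replicate 3. Tpi1, triose phosphate isomerase, averaged 138 ± 15.3 FPKM in AngII plus OA hearts, 137 ± 42.7 FPKM in AngII hearts and 138 ± 22.5 FPKM in vehicle hearts (SD, n = 5 each). Aldoc was at 0.0723 to 0.185 FPKM in AngII plus OA hearts, 0.0759 to 0.436 FPKM in AngII hearts and 0.0374 to 0.0838 FPKM in vehicle hearts, and at these levels 3 to 35 reads stood behind a value.

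In lower glycolysis, limma called 0 of 9 genes in AngII against vehicle (1, or 11.1%, at an unadjusted p under 0.05, beside 16.6% of all genes). Of the 9 changes, 6 were above 0, with a median of 0.19 on the log2 scale that was 0.02 after quantile normalization. In the fit without AngII replicate 2, limma called 1 of the 9 (Pgam1), and 4 had an unadjusted p under 0.05 (44.4%), beside 18.3% of all genes. Gapdh (ENSMUSG00000057666), the dehydrogenase often used as a reference transcript, had 803, 965, 829, 864 and 826 FPKM in AngII plus OA hearts and 1035, 789, 857, 929 and 1065 FPKM in AngII hearts. For Gapdh, vehicle hearts had 926, 928, 774, 589 and 714 FPKM. All 3 groups overlapped, and AngII replicates 1 and 5 were the highest libraries. Gapdh had a log2 change of 0.26 ± 0.14 (SE), adjusted p = 0.353 in AngII against vehicle and -0.12 ± 0.14 (SE), adjusted p = 0.864 in AngII plus OA against AngII in limma. Pgam1 (ENSMUSG00000011752), the widely expressed phosphoglycerate mutase, had 54.9, 56.0, 55.0, 54.2 and 45.9 FPKM in AngII plus OA hearts and 70.7, 43.5, 59.4, 70.2 and 55.8 FPKM in AngII hearts. For Pgam1, vehicle hearts had 47.4, 43.03, 38.7, 45.7 and 42.2 FPKM. Of the 5 AngII hearts, 4 lay above all vehicle hearts and AngII replicate 2, at 43.5 FPKM, lay among them. Pgam1 had a log2 change in AngII against vehicle of 0.44 ± 0.13 (SE), unadjusted p = 0.00315, adjusted p = 0.0972 in limma. Without AngII replicate 2 it was 0.55 (adjusted p = 0.0196) and past the threshold. Under the other scalings, filters and settings the log2 change of Pgam1 was 0.29 to 0.45. In AngII plus OA against vehicle it was 0.19 to 0.29 under those settings.

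Without that library, 2 of the 34 genes (Pfkp and Pgam1) were called in AngII against vehicle, beside 1.87% of all genes tested. The AngII and vehicle groups then did not overlap, with AngII higher, for 3 of the 34 genes (Pfkp, Pgam1 and Eno1), beside 5.68% of all genes tested. Eno1, the widely expressed enolase, was at 23.0 to 30.6 FPKM in AngII plus OA hearts, 22.9 to 32.7 FPKM in AngII hearts and 23.8 to 25.0 FPKM in vehicle hearts, and its AngII minimum was replicate 2. The muscle counterparts overlapped between groups. Gapdh, Pgam1, Aldoa, Ldha, Tpi1, Pgk1, Pkm and Eno1 have close paralogs or processed pseudogenes, and how shared reads were assigned is not given in the sources. Pgam2 averaged 703 ± 116 FPKM in AngII plus OA hearts, 797 ± 235 FPKM in AngII hearts and 694 ± 216 FPKM in vehicle hearts (SD, n = 5 each), and Eno3, the muscle enolase, 659 ± 45.1 FPKM in AngII plus OA hearts, 579 ± 172 FPKM in AngII hearts and 611 ± 95.5 FPKM in vehicle hearts (SD, n = 5 each).

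Pgk1, phosphoglycerate kinase, averaged 93.99 ± 12.7 FPKM in AngII plus OA hearts, 107 ± 32.5 FPKM in AngII hearts and 86.6 ± 27.6 FPKM in vehicle hearts (SD, n = 5 each), and Pkm, pyruvate kinase of muscle and other tissues, 138 ± 8.41 FPKM in AngII plus OA hearts, 131 ± 27.98 FPKM in AngII hearts and 143 ± 9.001 FPKM in vehicle hearts (SD, n = 5 each). Ldha, the form of lactate dehydrogenase that prevails in skeletal muscle, averaged 181 ± 5.002 FPKM in AngII plus OA hearts, 168 ± 27.5 FPKM in AngII hearts and 164 ± 19.5 FPKM in vehicle hearts (SD, n = 5 each). Ldhb (ENSMUSG00000030246) had 869, 794, 784, 786 and 952 FPKM in AngII plus OA hearts and 811, 473, 812, 744 and 561 FPKM in AngII hearts. For Ldhb, vehicle hearts had 916, 753, 927, 837 and 725 FPKM. AngII replicates 2 and 5 were the lowest of the 15 libraries, while the other 3 AngII hearts lay within the vehicle range. Ldhb had a log2 change of 0.33 ± 0.15 (SE), unadjusted p = 0.0471, adjusted p = 0.737 in AngII plus OA against AngII and -0.32 ± 0.15 (SE), unadjusted p = 0.0549, adjusted p = 0.312 in AngII against vehicle in limma. Without AngII replicate 2 the first was 0.20 (unadjusted p = 0.135) and the second -0.19 (unadjusted p = 0.158).

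Among the glycogen genes, limma called 0 of 8 in AngII against vehicle (4 of 8 at an unadjusted p under 0.05, beside 16.6% of all genes), and 4 of the 8 changes were above 0 and 4 below. With AngII replicate 2 left out, 6 of the 8 were above 0 and 2 below, and 3 had an unadjusted p under 0.05 (37.5%, beside 18.3% of all genes). That count also moved with scaling. With each library shifted to a common median it was 1 (12.5%, beside 14.7% of all genes). After rescaling without mitochondrially encoded genes it was 2 (25.0%, beside 13.3%), and after quantile normalization 3 (37.5%, beside 14.1%). Pygm (ENSMUSG00000032648), the muscle glycogen phosphorylase and the most abundant of them, had 172, 153, 192, 152 and 197 FPKM in AngII plus OA hearts and 195, 96.2, 222, 133 and 132 FPKM in AngII hearts. For Pygm, vehicle hearts had 191, 171, 195, 215 and 139 FPKM. The groups overlapped, and AngII replicate 2, at 96.2 FPKM, was the lowest library while AngII replicate 3, at 222 FPKM, was the highest. Pygm had a log2 change of -0.27 ± 0.20 (SE), adjusted p = 0.511 in AngII against vehicle and 0.21 ± 0.20 (SE), adjusted p = 0.832 in AngII plus OA against AngII in limma. With AngII replicate 2 left out these were -0.12 (adjusted p = 0.768) and 0.05 (adjusted p = 0.961). Pygb, the brain form, averaged 67.01 ± 12.7 FPKM in AngII plus OA hearts, 68.6 ± 20.6 FPKM in AngII hearts and 70.9 ± 17.7 FPKM in vehicle hearts (SD, n = 5 each), and Pygl, the liver form, 1.33 ± 0.184 FPKM in AngII plus OA hearts, 1.86 ± 0.862 FPKM in AngII hearts and 1.18 ± 0.0878 FPKM in vehicle hearts (SD, n = 5 each). Gys1, muscle glycogen synthase, averaged 11.03 ± 1.70 FPKM in AngII plus OA hearts, 11.5 ± 3.15 FPKM in AngII hearts and 11.9 ± 2.35 FPKM in vehicle hearts (SD, n = 5 each), and Gbe1, the branching enzyme, 5.26 ± 0.918 FPKM in AngII plus OA hearts, 5.76 ± 2.07 FPKM in AngII hearts and 5.12 ± 2.296 FPKM in vehicle hearts (SD, n = 5 each). The groups overlapped for these 4 genes as well. Pygl had a log2 change of 0.35 ± 0.14 (SE), unadjusted p = 0.0238, adjusted p = 0.219 in AngII against vehicle in limma, and of 0.19 without AngII replicate 4, which held 3.38 FPKM.

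Ugp2 (ENSMUSG00000001891), which makes the UDP-glucose that glycogen synthase uses, had 83.7, 86.0, 135, 88.2 and 83.5 FPKM in AngII plus OA hearts and 158, 87.1, 143, 126 and 106 FPKM in AngII hearts. For Ugp2, vehicle hearts had 107, 66.4, 94.1, 110.3 and 70.04 FPKM. Apart from AngII plus OA replicate 3, at 135 FPKM, that group lay among the vehicle hearts, and 3 of the 5 AngII hearts exceeded every vehicle heart. Ugp2 had a log2 change of 0.46 ± 0.19 (SE), unadjusted p = 0.0309, adjusted p = 0.245 in AngII against vehicle and -0.37 ± 0.19 (SE), unadjusted p = 0.0769, adjusted p = 0.737 in AngII plus OA against AngII in limma. Phkg1, the catalytic subunit of muscle phosphorylase kinase, was at 1.28 to 2.72 FPKM in AngII plus OA hearts, 0.967 to 2.603 FPKM in AngII hearts and 1.86 to 3.86 FPKM in vehicle hearts. Its log2 change in AngII against vehicle was -0.58 ± 0.18 (SE), unadjusted p = 0.0062, adjusted p = 0.129 in limma. Phka1, a regulatory subunit of the same kinase in muscle, averaged 7.02 ± 1.36 FPKM in AngII plus OA hearts, 8.18 ± 1.55 FPKM in AngII hearts and 6.404 ± 0.8603 FPKM in vehicle hearts (SD, n = 5 each), with 0.30 ± 0.14 (SE), unadjusted p = 0.0401, adjusted p = 0.272 for the log2 change in AngII against vehicle in limma. The AngII and vehicle hearts overlapped for both subunits. Without AngII replicate 2 the log2 change in AngII against vehicle was -0.69 (adjusted p = 0.0612 in limma) for Phkg1, 0.22 (adjusted p = 0.398) for Phka1 and 0.58 (adjusted p = 0.122) for Ugp2.

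**Figure D2:**
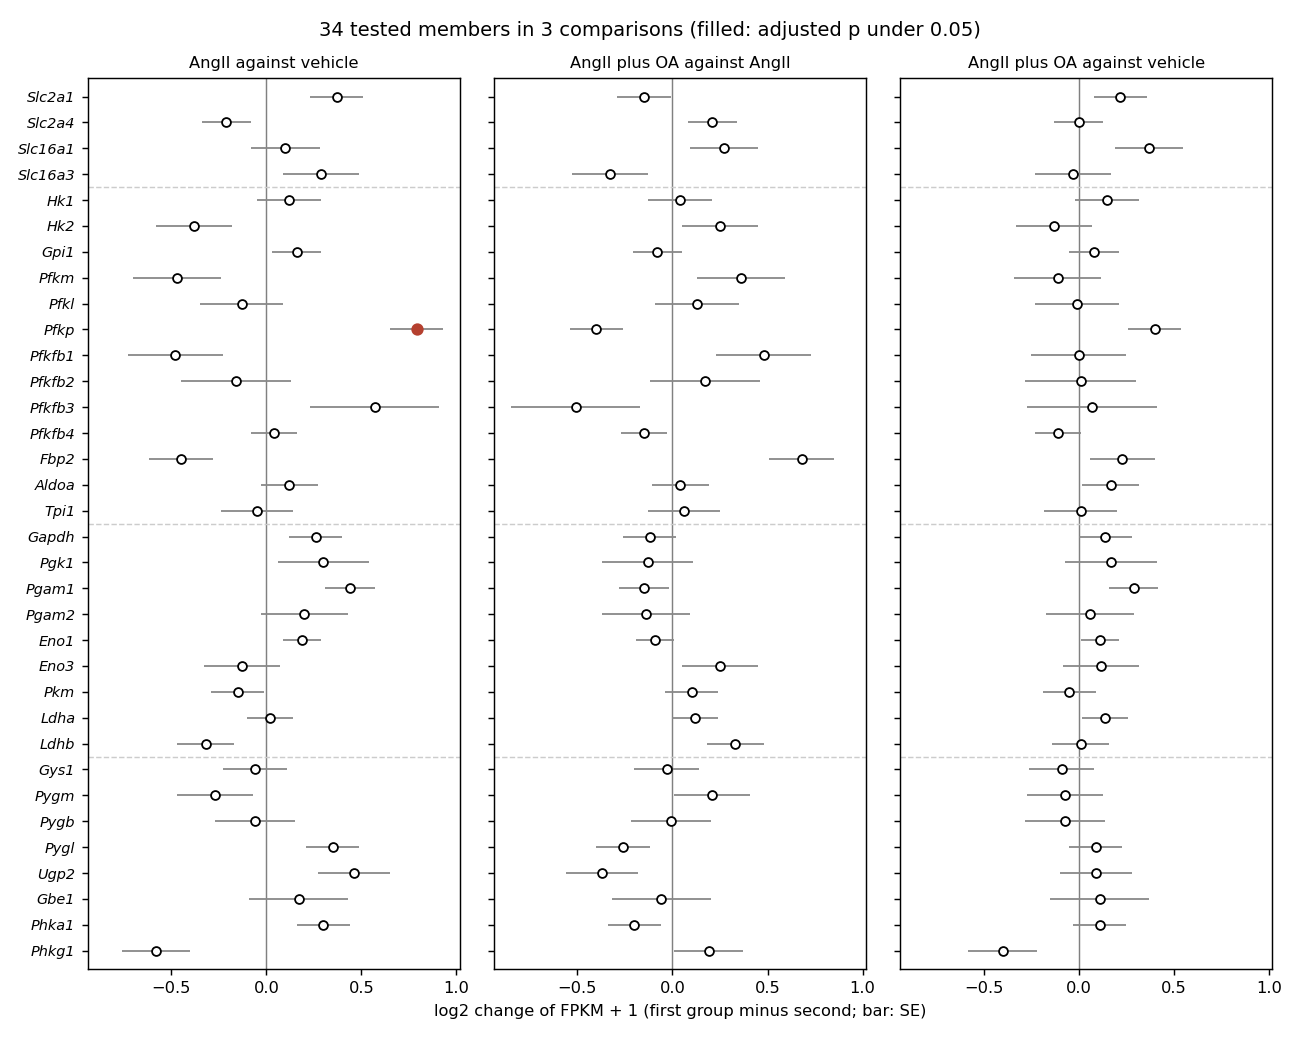
Log2 change of FPKM + 1 (x axis, first group minus second, bars ± SE) of the 34 tested genes in 3 comparisons, in role order with carriers at the top and glycogen genes at the bottom. The filled point, Pfkp at 0.79 in AngII against vehicle, is the one change with an adjusted p under 0.05.

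Read together, the 34 changes in AngII against vehicle had a median of 0.07 on the log2 scale, as did all 13121 genes, with 19 above 0 and 15 below. Their median absolute size was 0.24, against 0.14 over all genes. The scale used understates changes of low genes, and the 34 genes were not matched in level to all genes. The part of expression level in this gap was not tested. An unadjusted p under 0.05 was found for 8 of the 34 (23.5%), against 16.6% of all genes. These 8, chosen after their values were seen, were Pfkp, Pgam1, Slc2a1, Pygl, Ugp2 and Phka1 with higher and Fbp2 and Phkg1 with lower values in AngII hearts, and all but Pfkp had an adjusted p of at least 0.0972. Without AngII replicate 2 the median was 0.15, against 0.10 over all genes, with 25 changes above 0 and 9 below. After mitochondrially encoded genes were left out of the scaling, 17 changes were above 0 and 17 below, so no direction is given for these genes as a whole. In that setting 11 of the 34 had an unadjusted p under 0.05 in limma (32.4%, beside 13.3% of all genes). The count was 12 (35.3%, beside 14.1%) after quantile normalization and 9 (26.5%, beside 14.7%) with each library shifted to a common median.

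In AngII plus OA against AngII, limma called 0 of the 34 genes, beside 0.0% of all genes tested, and 3 of the 34 (8.82%) had an unadjusted p under 0.05, against 6.6% (866) of all genes. These 3 were Pfkp, lower in AngII plus OA hearts, and Fbp2 and Ldhb, higher in them. The median change was 0.01, against -0.05 over all genes, with 17 above 0 and 17 below. Without AngII replicate 2 the median was -0.08, against -0.07 over all genes, with 12 above 0 and 22 below. In that setting limma called 0 of the 34, beside 0.0% of all genes, and 4 had an unadjusted p under 0.05 (11.8%), against 7.47% of all genes. With all libraries, 0 of the 34 had groups without overlap in this comparison, beside 1.27% of all genes. In AngII plus OA against vehicle, limma also called 0 of the 34, beside 0.0% of all genes, and 3 of the 34 (8.82%) had an unadjusted p under 0.05, against 3.36% (441) of all genes. These 3 were Pfkp and Pgam1, higher in AngII plus OA hearts, and Phkg1, lower in them, each with an adjusted p of 1.0. Groups without overlap were found for 0 of the 34, beside 0.838% of all genes. Pgam1 had a log2 change there of 0.29 ± 0.13 (SE), unadjusted p = 0.0362, adjusted p = 1.0 in limma, and that of Phkg1 -0.40 ± 0.18 (SE), unadjusted p = 0.048, adjusted p = 1.0.

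**Figure D3:**
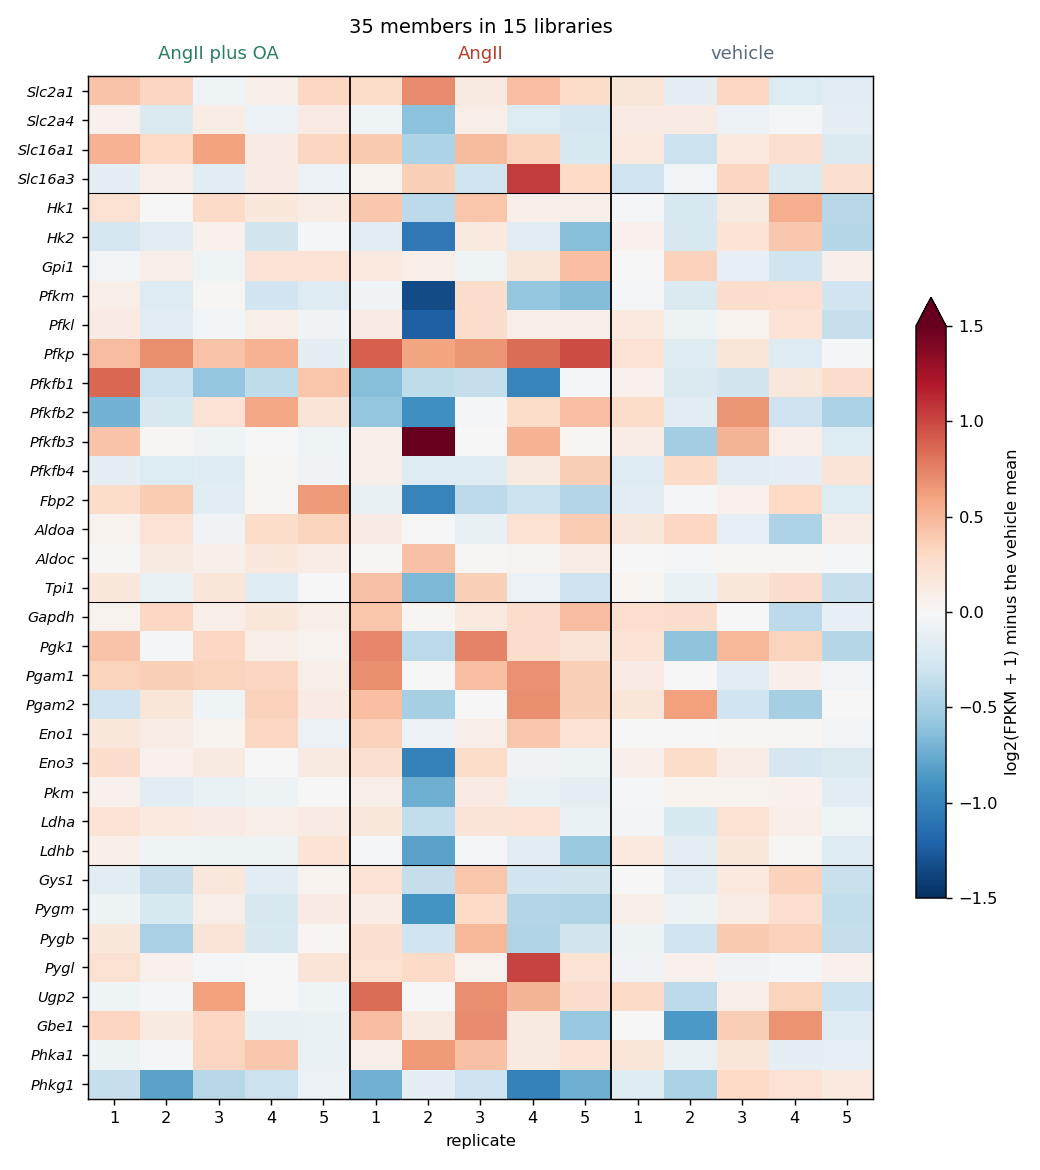
Log2(FPKM + 1) of the 35 genes (rows, in role order) in 15 libraries (columns, by group and replicate) minus the vehicle mean, red above and blue below, with the scale ending at 1.5 so that Pfkfb3 in AngII replicate 2 lies past its end. The column of AngII replicate 2 is blue for Pfkm, Pfkl, Hk2, Eno3 and Pygm, and the row of Pfkp is red in all 5 AngII libraries.

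Within enzyme families, the split between isozymes does not depend on how a library was scaled, so it was described as a share of the family's summed FPKM in each library, with no test and no count over other gene families beside it. Pfkp took 3.24, 4.74, 3.37, 4.32 and 2.46% in AngII plus OA hearts, 4.93, 9.3, 3.39, 6.4 and 7.36% in AngII hearts and 2.9, 2.4, 2.37, 1.75 and 2.9% in vehicle hearts of the summed FPKM of Pfkm, Pfkl and Pfkp. Each AngII heart held a larger share than every vehicle heart, and Pfkm remained the main form in all 15 libraries. The FPKM of Pfkp alone also separated these groups, so this share in part repeats that result. Of the summed FPKM of Hk1 and Hk2, Hk1 took 35.1, 29.8, 30.9, 34.3 and 29.4% in AngII plus OA hearts, 36.7, 38.1, 31.9, 31.0 and 39.1% in AngII hearts and 26.1, 27.4, 26.6, 30.0 and 27.4% in vehicle hearts. All AngII hearts were again above all vehicle hearts, the closest being 31.0% in an AngII heart and 30.0% in a vehicle heart, while neither gene alone separated the groups. Ldha took 17.8, 18.6, 18.6, 18.2 and 15.8% in AngII plus OA hearts, 18.5, 21.1, 18.8, 20.3 and 21.4% in AngII hearts and 14.8, 15.7, 17.1, 17.3 and 17.8% in vehicle hearts of the summed FPKM of Ldha and Ldhb. Here the AngII hearts lay at or above 18.5% and the vehicle hearts at or below 17.8%, and the AngII plus OA hearts spanned both ranges. For the other families (aldolases, glucose carriers, lactate carriers, 6-phosphofructo-2-kinases, phosphoglycerate mutases, enolases and glycogen phosphorylases) the AngII and vehicle shares overlapped. The fibroblast and macrophage marker sums moved with AngII as given above, and their part in these shares was not tested.

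**Figure D4:**
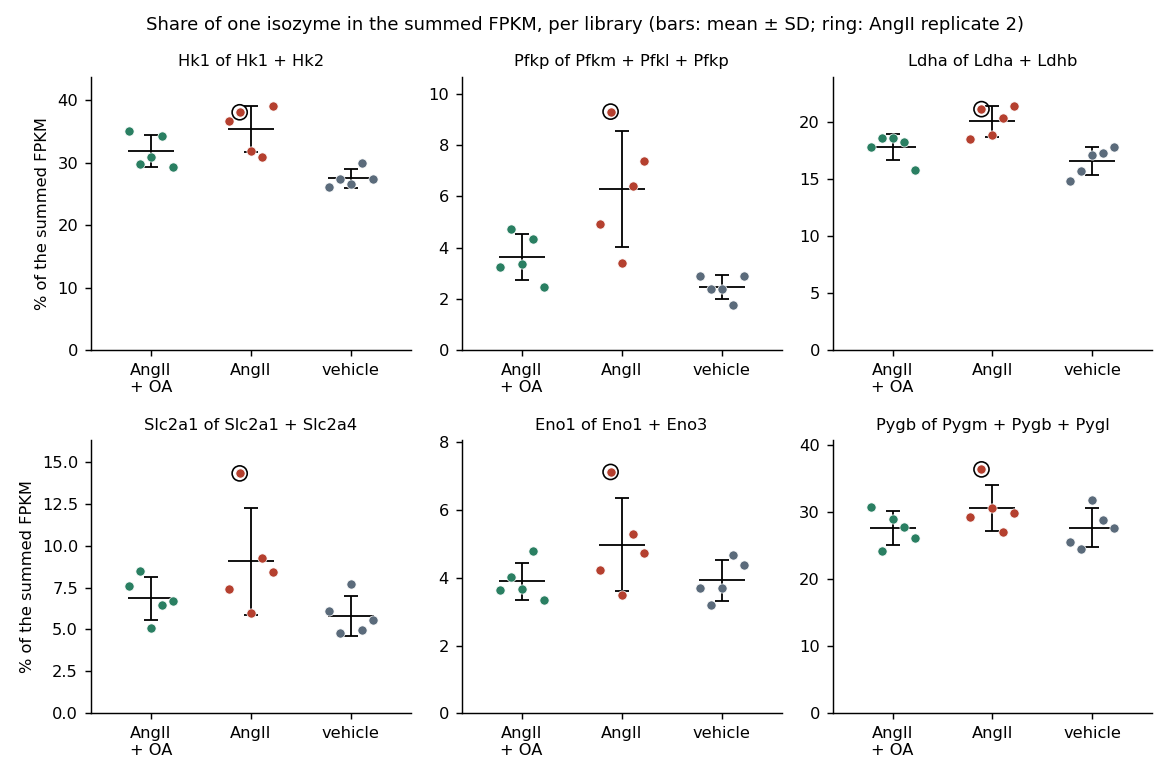
Share of 1 isozyme in the summed FPKM of its family (y axis, percent, from 0) per library and group, with points for libraries, bars for mean ± SD and a ring around AngII replicate 2. In the upper row (Hk1, Pfkp, Ldha) every AngII point is above every vehicle point, and in the lower row (Slc2a1, Eno1, Pygb) the groups overlap. No test was run on these shares, and no count over other gene families stands beside them.

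Beyond the 35, limma called 0 genes of 5 lists of related genes in each of the 3 comparisons. They were 12 tested of 17 other glycolytic and gluconeogenic enzymes, 7 of 14 other sugar, lactate and pyruvate carriers, 20 of 23 other glycogen genes, 18 of 19 genes of the pentose phosphate, polyol and hexosamine branches, and 29 of 31 regulators. In AngII against vehicle, 2, 0, 2, 4 and 7 of the genes tested in these lists had an unadjusted p under 0.05 (16.7%, 0.0%, 10.0%, 22.2% and 24.1%), beside 16.6% of all genes. The most abundant of the carrier list was Bsg, the chaperone of the lactate carriers, at 514 FPKM in AngII plus OA hearts, 507 FPKM in AngII hearts and 523 FPKM in vehicle hearts, followed by Mpc2, a subunit of the mitochondrial pyruvate carrier. Mpc2 averaged 40.5 FPKM in AngII plus OA hearts, 38.8 FPKM in AngII hearts and 38.04 FPKM in vehicle hearts. Among the glycogen genes, Gyg, the glycogenin primer, averaged 53.5 FPKM in AngII plus OA hearts, 56.1 FPKM in AngII hearts and 48.5 FPKM in vehicle hearts. Pgm1, phosphoglucomutase, averaged 43.1 FPKM in AngII plus OA hearts, 41.7 FPKM in AngII hearts and 44.2 FPKM in vehicle hearts. The regulators Txnip, an inhibitor of glucose uptake, and Pdk4, which blocks entry of pyruvate into the mitochondrial cycle, were the most abundant of their list. Txnip averaged 174 ± 51.2 FPKM in AngII plus OA hearts, 235 ± 50.4 FPKM in AngII hearts and 149 ± 58.3 FPKM in vehicle hearts (SD, n = 5 each), with a log2 change of 0.71 in AngII against vehicle (adjusted p = 0.193 in limma). Pdk4 averaged 75.9 ± 32.2 FPKM in AngII plus OA hearts, 158 ± 66.1 FPKM in AngII hearts and 82.8 ± 66.6 FPKM in vehicle hearts (SD, n = 5 each), with a log2 change of 1.29 in AngII against vehicle (adjusted p = 0.271 in limma). Sord and Taldo1, of the polyol and pentose phosphate branches, averaged 50.6 and 36.6 FPKM in AngII plus OA hearts, 41.8 and 35.9 FPKM in AngII hearts and 59.5 and 32.5 FPKM in vehicle hearts. G6pc3, a glucose-6-phosphatase of the enzyme list, averaged 12.6 FPKM in AngII plus OA hearts, 13.2 FPKM in AngII hearts and 12.3 FPKM in vehicle hearts.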

How the data were processed

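Poly(A)-enriched RNA of mouse ventricle was sequenced on an Illumina instrument, per the labels' protocols. The authors deposited FPKM (length-corrected and scaled to library size, so a change in mitochondrially encoded RNA moves every other gene) for 36653 gene rows in 15 libraries. HISAT2 2.0.4 and the build name mm8 are given in the submitters' processing notes. Which counter, strand setting, annotation or FPKM program was used is not given in the sources. Symbols came from GENCODE M21, which named 36499 rows, and promoters from RefSeq on GRCm38.p6.

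Steps between FPKM values gave whole reads within 0.02 for 86.6% of 28886 genes and for 28 of the 35 genes described, and denominators of 24.5 to 28.3 M. The exceptions among the 35 were Pfkm, Pfkl, Pfkp, Fbp2, Aldoa, Pgam1 and Pygl, so no read numbers stand behind their values here. Every replicate pair differed beyond sampling noise (chi-square at least 25.1 per degree of freedom), and each library entered once.

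Changes were tested in limma 3.58.1 (R 4.3.3) on log2(FPKM + 1), with a trend of the variance on intensity. The fit took in all 15 libraries, had group as its term and covered the 13121 genes that averaged 0.5 FPKM or more. Tests were 2-sided, with Benjamini-Hochberg adjustment per comparison over all tested genes and a threshold of 0.05. Fold changes understate those of low genes. The procedure was checked on simulated data, with independent noise, the same spread of a gene in every group and no outlying library. In AngII against vehicle it recovered 17 of 50 genes with a simulated log2 change of 0.5 and 42 of 50 with one of 1.0. In that run of 13121 genes there were 7 false calls. A change near 0.5 was thus often missed there, and recovery with an outlying library was not tested. Alternatives covered the pseudocount, filter, scaling, libraries in the fit, a replicate block and each library left out. Values per library are given for genes called or with groups apart in a comparison and for the most abundant gene of each role. Other genes were named after their values were seen. Of the related lists the 2 most abundant genes are named, except 1 gene that is not reported here. The 35 genes, the lists and the tests were chosen with earlier results of these data known.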

Additional observations from a re-analysis of the deposited data

Results flagged for a closer look

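Of 102 groups of 5 libraries examined (34 genes in 3 groups), 6 held a library far from the other 4 by Dixon's criterion, and chance alone marks about 1 in 20. Pfkl was at 7.07 FPKM in AngII replicate 2, against 19.0 to 21.5 FPKM in the other AngII hearts, and Pfkfb3 was at 11.6 FPKM in the same library, against 1.71 to 2.85 FPKM. That library also had the low heart muscle and high fat cell and atrial marker sums given in the report, and their part in these values was not tested. Pfkfb3 was also high in AngII plus OA replicate 1, at 2.62 FPKM against 1.57 to 1.75 FPKM in the rest of its group. Pgam1 was low in AngII plus OA replicate 5, at 45.9 FPKM against 54.2 to 56.0 FPKM, the library in which Pfkp was also lowest of its group. Pygl was high in AngII replicate 4, at 3.38 FPKM against 1.25 to 1.64 FPKM. Ugp2 was high in AngII plus OA replicate 3, at 135 FPKM against 83.5 to 88.2 FPKM.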

How the results depend on the processing

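The number of genes called in AngII against vehicle, 197 (166 higher, 31 lower), was 72 with no filter on low values, 109 after quantile normalization (69 higher, 40 lower), 123 after rescaling without mitochondrially encoded genes (86 higher, 37 lower) and 70 with only the 10 libraries compared. Leaving out single libraries gave 49 to 425. It was 86, 425, 70 and 49 without AngII replicates 1, 3, 4 and 5, and 79, 128, 70 and 50 without vehicle replicates 2, 3, 4 and 5. The cause was not tested. Of the 34 genes, 0 to 2 were called as single libraries were left out, with 0 without AngII replicate 5 and 2 without AngII replicate 2. In AngII plus OA against AngII, 0 to 1 genes were called, the 1 being lower and found without AngII replicate 3. The calls of 0 in AngII plus OA against vehicle, and of 0 of the 34 in both comparisons with AngII plus OA, were the same under every alternative run. Among the log2 changes of single genes named in the report and recomputed, the sign turned for Pfkl in AngII against vehicle (-0.13, and -0.23 to 0.14 as libraries were left out, the highest without AngII replicate 2) and for Aldoa in AngII plus OA against AngII (0.04, and -0.04 after quantile normalization and -0.01 to 0.11 as libraries were left out, the lowest without AngII replicate 3). None of these passed the threshold. Pfkp kept its direction in AngII against vehicle throughout, with a log2 change of 0.74 to 0.85 as libraries were left out and 0.67 to 0.89 under the other settings.

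With the replicate number as a block, 38 genes and 0 of the 34 were called in AngII against vehicle, and Pfkp had an adjusted p of 0.0533. The numbers were not taken to pair the mice, since the correlations of same-numbered libraries ran from -0.35 to 0.435 and the labels state no pairing. Genes under 1 FPKM, such as Aldoc, rest on few reads, and their changes are poorly measured.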
